A study of Macaca fascicularis with 6 samples.

Results

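The genes of the urea cycle and of amino acid catabolism were followed in liver from 6 cynomolgus macaques (Macaca fascicularis), 3 given vehicle and 3 given an LXR ligand. LXR, the liver X receptor, is a transcription factor switched on by oxysterols. Each animal gave 1 Affymetrix array of human probe sets, read as MAS5 signal, an intensity on a linear scale in arbitrary units. The ligand arrays carry GW in their titles, a code the sources used here do not spell out, and the dose, the length of treatment and the age of the animals are not given there. A list of 44 genes was set by function, with earlier results of these data known. Of these genes, 39 had at least 1 probe set that names them alone, while the other 5 were not analysed here. The brightest such probe set stood for each gene, and 38 of the 39 were bright enough to be tested, out of 13349 genes tested in all. UROC1, urocanate hydratase of histidine breakdown, was the one left below the filter.

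Liver is the main site where amino acids lose their nitrogen. Transaminases and dehydrogenases pass the amino group to glutamate, aspartate and free ammonia, and the urea cycle, which starts in the mitochondria and ends in the cytosol, joins these to bicarbonate as urea. The work is laid out along the lobule: cells around the portal vein make urea and break down histidine and serine, and a thin layer of cells around the central vein takes up glutamate and ammonia and makes glutamine. The carbon skeletons feed glucose production, ketone bodies and the citric acid cycle.

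The question put by the design was which of these genes differed between livers of animals given the ligand and animals given vehicle. NAGS, which makes the activator of the first urea cycle enzyme, was lower on the ligand arrays, with a log2 difference of -1.11 ± 0.25 (SE, n = 3 per group), and FTCD, which ends histidine breakdown on folate, was higher, with one of 0.88 ± 0.18, each with groups that did not overlap. Lower means stood also at both aspartate aminotransferases, GOT1 and GOT2, and at CTH, which releases cysteine. Higher means stood at GLUL, the glutamine synthetase, and at DBT, a core subunit of the branched-chain complex, each on its brightest probe set. Averaged over the tested probe sets of a gene, the differences were 0.47 for FTCD, 0.29 for GLUL and 0.0035 for DBT. The urea cycle enzymes after NAGS did not share a direction. None of the 38 members passed at an adjusted p under 0.05 in limma's moderated test, so all of these are values and not calls.

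All differences between groups are on the log2(signal + 16) scale, ligand minus vehicle, with limma's SE, and p-values were adjusted over all 27304 probe sets tested. Of these, 0 (0%) passed, and 1523 had an unadjusted p under 0.05. Among the members 10 of 38 (26.3%) had an unadjusted p under 0.05, 5 higher and 5 lower with the ligand, beside 6.12% of all genes tested. The list was chosen with earlier results of these data known, so setting these shares side by side does not test it. The count of 10 also depended on the model of the spread. When no intensity trend, which lends bright probe sets a smaller prior spread, was fitted, it was 4 of 38 (10.5%) beside 5.29% of all genes, namely NAGS, FTCD, GOT2 and CTH. Without vehicle array 1 it was 6 (15.8%, beside 5.71% of all genes). The 3 ligand arrays all lay above the 3 vehicle arrays for 4 members (10.5%), beside 6.21% of all genes, and all below for 2 members (5.26%), beside 5.21% of all genes, so the count of separated members on the lower side was close to the background.

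Across the 38 tested members 16 had higher and 22 lower mean log2 signal with the ligand. Their median difference was -0.09, beside 0.0027 over all genes tested, and with single arrays left out it lay between -0.12 (ligand array 2 out) and 0.05 (ligand array 3 out), so the list had no common direction. Single differences ran from -1.14 at CTH to 0.88 at FTCD. The spread within a group, as the residual SD on the log2 scale, had a median of 0.34 over the members and 0.37 over all genes, and among members it was smallest at GPT with 0.080 and largest at BCKDHA with 0.71.

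**Figure D1:**
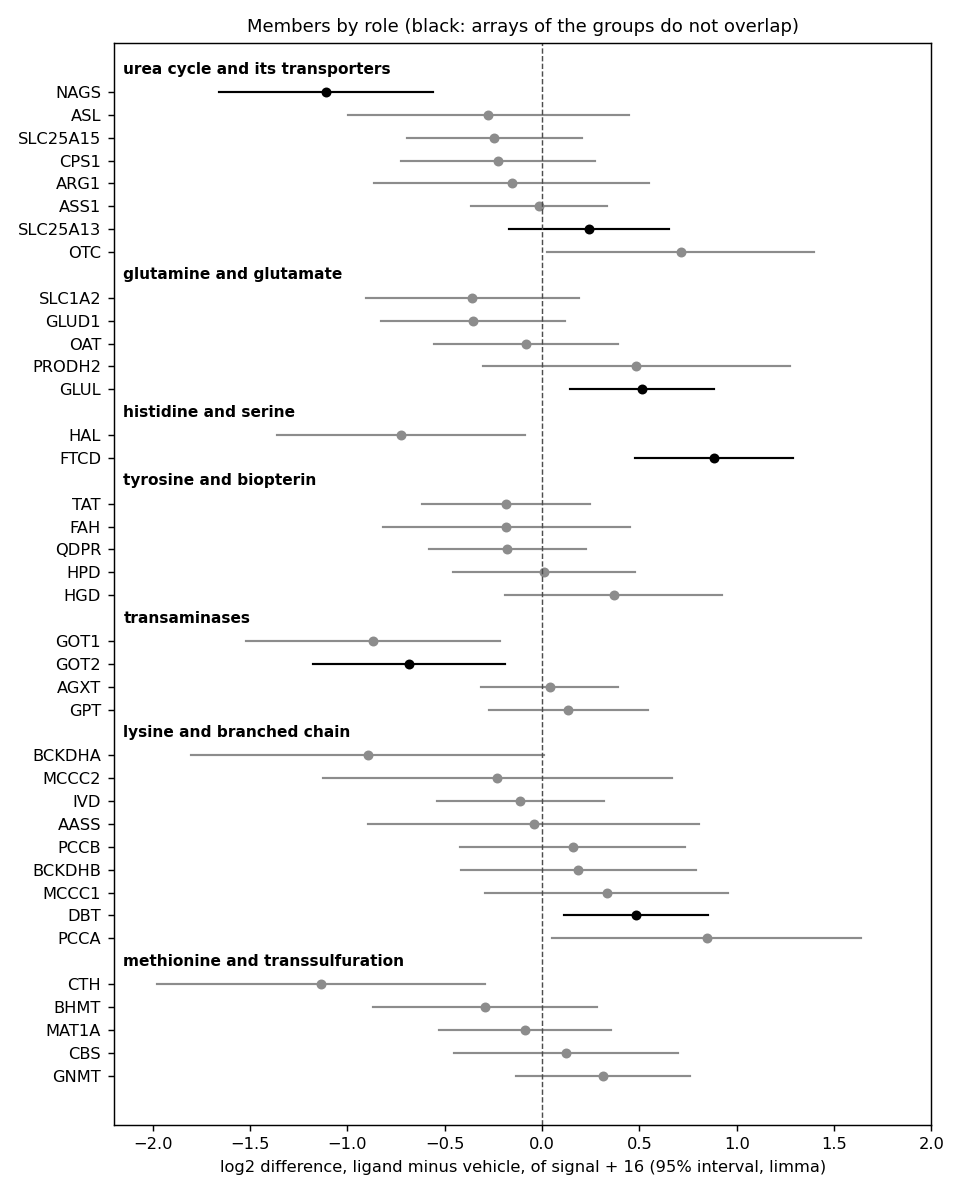
Difference in log2(signal + 16), ligand minus vehicle, for the 38 tested members, 1 row a gene, ordered by role. Points are limma estimates and lines their 95% intervals, and black marks the 6 genes whose arrays did not overlap between groups, with NAGS at -1.11 on the left and FTCD at 0.88 on the right.

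In the whole series, ligand array 1 stood apart on the first principal component of all tested probe sets (23.0% of the variance), at -89.8 against 0.632 to 36.8 for the other 5 arrays. Without it 8 members (21.1%, beside 6.05% of all genes) had an unadjusted p under 0.05, namely FTCD at 0.90, DBT at 0.48, GLUL at 0.44, NAGS at -1.18, BCKDHA at -1.06, CTH at -1.04, GOT2 at -0.67 and FAH at -0.52. PCCA at 0.65, OTC at 0.63, HAL at -0.61 and GOT1 at -0.59 were then no longer under 0.05. The log2 ratio of the 3' to the 5' control probe set of a gene is a sign of RNA quality. For GAPDH it was 0.99 to 1.70 with vehicle and 1.17 to 2.05 with the ligand. For actin it was larger on every array, at 2.154 to 3.06 with vehicle and 2.622 to 4.003 with the ligand. Both ratios were highest on array 3 of each group. Those same arrays, vehicle array 3 and ligand array 3, each held the lowest value of the 6 for 11 of the 38 members. Ligand array 1, with a GAPDH ratio of 1.385, held it for 9. The part of RNA quality in the values below was not tested. In bulk liver RNA, fewer cells of a type and less RNA per cell cannot be told apart. Hepatocytes, the cells that express most members, were present by their markers: none of 9 hepatocyte markers was at 0, and their summed signal was 668448 to 797672 with vehicle and 730822 to 807761 with the ligand. Markers of macrophages summed to 5129 to 7526 and 11179 to 12656, higher for 8 of 10, with CLEC4F and TIMD4 too dim to test. Markers of stellate cells and fibroblasts summed to 20414 to 31967 and 38163 to 52730, higher for 8 of 10. The brightest, DCN and COL3A1, had means of 12289 and 4936 with vehicle and 18750 and 10982 with the ligand. COL1A1, with groups that did not overlap, and PDGFRB were lower. Known LXR target genes summed to 10752 to 15403 and 17912 to 28052, higher for 9 of 10. The sums of macrophage, stellate cell and LXR target genes did not overlap between groups, no gene of the 3 lists was at 0, and the part of the cell types in the members' differences was not tested. Endothelial markers were higher for 9 of 10, with overlapping sums of 11102 to 13429 and 11590 to 14958. The tenth, VWF, the blood clotting factor of endothelium, read 4667, 2129 and 1340 with vehicle and 157, 156 and 378 with the ligand. HBB, a haemoglobin chain that marks blood, read 11085 on vehicle array 1 and 600 to 1255 on the other 5.

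The urea cycle begins with NAGS, whose product N-acetylglutamate must bind carbamoyl phosphate synthetase before that enzyme can work. In the order of the array numbers, as throughout, it read 1067, 930 and 1213 with vehicle and 536, 531 and 397 with the ligand. Every ligand array was well under every vehicle array, with means of 1070 ± 142 and 488 ± 78.6 (SD, n = 3 per group). The log2 difference was -1.11 ± 0.25 (SE), with a 95% interval from -1.66 to -0.56 and an adjusted p of 0.552 in limma, or 0.365 to 0.896 over all alternatives. It was -1.18 without ligand array 1 and no less in size than -0.97 without any single array. NAGS has a single probe set here, so no second measurement of it was at hand.

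CPS1, the carbamoyl phosphate synthetase that NAGS serves, read 6366, 4520 and 4576 with vehicle and 3605, 5416 and 4205 with the ligand. Its arrays overlapped, and the difference was -0.23 ± 0.22 (SE). It was -0.065 once vehicle array 1 was left out, and -0.42 ± 0.30 at its dimmer probe set. OTC, ornithine transcarbamylase, is the next mitochondrial enzyme and read 8293, 13258 and 6501 with vehicle and 16517, 19613 and 9717 with the ligand. Ligand array 3 was below vehicle array 2, and array 3 was the lowest of each group. OTC had a log2 difference of 0.71 ± 0.31 (SE), at an adjusted p of 0.879 in limma, or 0.48 without vehicle array 3. Within the mitochondrial part of the cycle the means of NAGS and of OTC thus stood on opposite sides of 0.

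The cytosolic enzymes showed no separation of the groups. ASS1, argininosuccinate synthetase, read 105823, 94564 and 82487 with vehicle and 102998, 90144 and 86215 with the ligand. Its log2 difference was -0.015 ± 0.16 (SE), with a 95% interval from -0.36 to 0.33, and its sign changed when single arrays were left out. ASL, argininosuccinate lyase, varied far more between animals than between groups. It read 27170, 54840 and 59408 with vehicle and 24227, 47238 and 43619 with the ligand, so array 1 was the low one in each group, and its difference of -0.28 ± 0.33 (SE) was 0.026 without ligand array 1. ARG1, the arginase that releases urea, read 455, 749 and 470 with vehicle and 357, 667 and 480 with the ligand, a log2 difference of -0.16 ± 0.32 (SE). Array 2 was its highest in both groups, and its 4 tested probe sets ran from -0.16 to 0.088. Leaving out vehicle array 2 or ligand array 1 turned its sign, to 0.070 and 0.058. A signal depends on how well a human probe matches the macaque transcript, so levels of different genes are not compared.

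The tested carriers of the cycle were SLC25A13 and SLC25A15. SLC25A13, which brings aspartate out of the mitochondria, read 3263, 2802 and 3444 with vehicle and 3797, 3512 and 3914 with the ligand. Its arrays did not overlap, yet the difference was small, 0.24 ± 0.19 (SE), and its other tested probe sets gave 0.19 and -0.23, for a mean of 0.067. SLC25A15, which exchanges ornithine for citrulline, read 12452, 12133 and 11653 with vehicle and 7792, 12687 and 10694 with the ligand, where array 1 was the low one. Its difference of -0.24 ± 0.20 (SE) was -0.052 without ligand array 1. Its second probe set gave -0.53 ± 0.30, and the mean of its probe sets was -0.39.

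Histidine breakdown gave the member with the smallest p. HAL takes the amino group off histidine in the first step, UROC1 acts in the second, and FTCD carries the last carbon to tetrahydrofolate. FTCD read 10469, 7683 and 7516 with vehicle and 15335, 15296 and 16262 with the ligand. The ligand arrays lay close together and above all vehicle arrays, with means of 8556 ± 1659 and 15631 ± 547 (SD, n = 3 per group). The log2 difference was 0.88 ± 0.18 (SE), with a 95% interval from 0.48 to 1.29 and an adjusted p of 0.456 in limma, or 0.334 to 0.932 over all alternatives.

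All 6 tested probe sets of FTCD were higher with the ligand, by 0.14 to 0.88, and 4 of the 6 had groups that did not overlap. The dimmer ones gave smaller differences, and the mean over the 6 was 0.47. Of these probe sets 5 bear the suffix that the maker gives to sets whose probes can also match other transcripts, and how far other transcripts contribute was not tested. HAL read 4370, 8029 and 3995 with vehicle and 2667, 4075 and 2846 with the ligand. Its difference of -0.72 ± 0.29 (SE), or -0.41 without vehicle array 2, had the opposite sign to that of FTCD, and its second probe set gave -0.44 with groups that did not overlap. UROC1 read 93.1, 60.1 and 40.8 with vehicle and 13.3, 19.3 and 174 with the ligand, too dim and too scattered to give a difference.

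**Figure D2:**
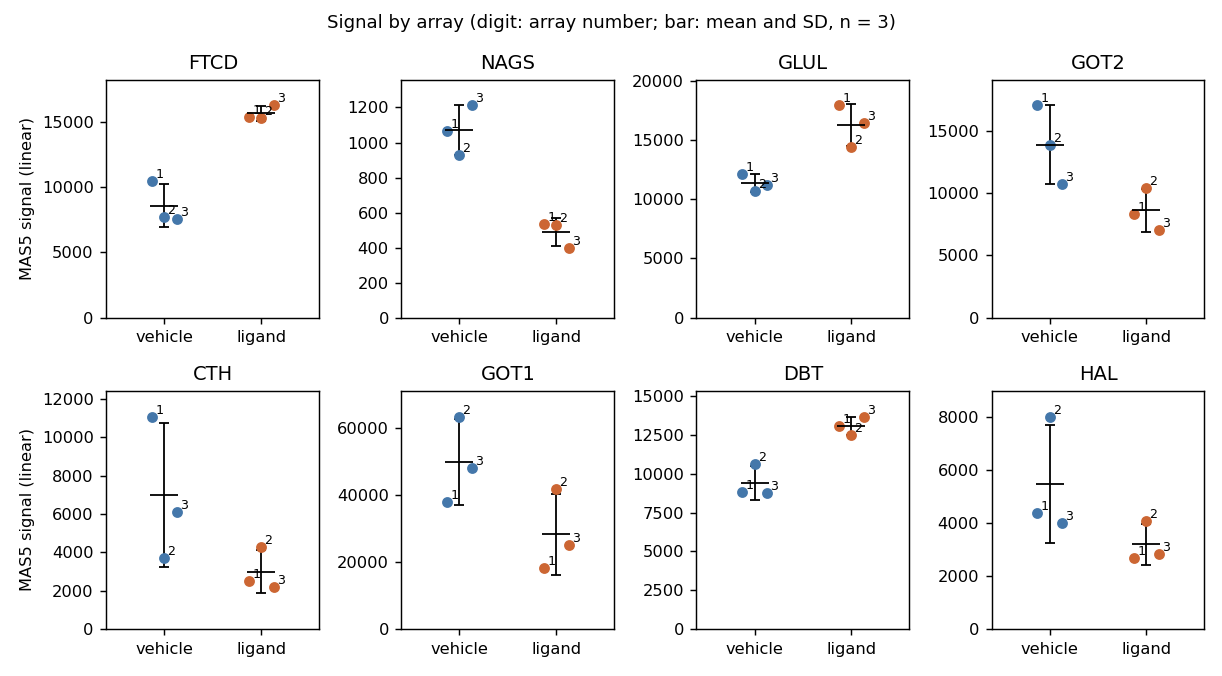
MAS5 signal (linear axis from 0) of the 8 members with the smallest unadjusted p, 1 panel a gene, with each array as a numbered point and the mean and SD of each group of 3 as a bar. The groups do not overlap for FTCD, NAGS, GLUL, GOT2 and DBT, and they overlap for CTH, GOT1 and HAL.

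Of 4 tested transaminases 2 were lower and 2 higher in mean. GOT1 and GOT2, the cytosolic and mitochondrial aspartate aminotransferases, feed aspartate to the urea cycle and run the malate-aspartate shuttle, and both had lower means with the ligand. GOT2 read 17060, 13849 and 10723 with vehicle and 8353, 10438 and 7024 with the ligand. The groups did not overlap but came close, at 10723 and 10438, and the difference was -0.68 ± 0.22 (SE), at an adjusted p of 0.829 in limma. GOT1 read 37927, 63376 and 47940 with vehicle and 18115, 41726 and 24954 with the ligand. Ligand array 2 lay above vehicle array 1, and the difference of -0.87 ± 0.29 (SE) was -0.59 without ligand array 1.

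The alanine enzymes had smaller differences. GPT, alanine aminotransferase, read 2757, 2767 and 2556 with vehicle and 2747, 3101 and 3035 with the ligand, with a 95% interval of the difference from -0.27 to 0.54. AGXT, which moves the amino group of alanine onto glyoxylate in peroxisomes, read 24458, 23518 and 21059 with vehicle and 24757, 24963 and 21254 with the ligand. Its difference was 0.039 ± 0.16 (SE), and a second probe set gave -0.39 ± 0.23, with ligand array 3 the lowest. No test of the difference between the aspartate and alanine enzymes was made.

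Among glutamine and glutamate genes, GLUL, which fixes ammonia as glutamine around the central vein, read 12143, 10716 and 11178 with vehicle and 17920, 14372 and 16421 with the ligand on its brightest probe set. All ligand arrays were above all vehicle arrays, with a 95% interval of the log2 difference from 0.14 to 0.88. The other 2 tested probe sets gave -0.0042 and 0.35 with overlapping groups, and the mean over the 3 was 0.29. One more, too dim to be tested, read 40.2, 7.56 and 70.2 with vehicle and 169, 224 and 240.3 with the ligand. SLC1A2, the glutamate transporter of the same cells, read 19242, 15634 and 18188 with vehicle and 11196, 11168 and 20797 with the ligand. Ligand arrays 1 and 2 were low and ligand array 3 was the highest of all, for a difference of -0.36 ± 0.25 (SE), or -0.66 without ligand array 3. On its second probe set all ligand arrays, at 6006, 6227 and 7898, lay under the vehicle arrays, at 9299, 12758 and 9819, for a difference of -0.66 ± 0.20.

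OAT, ornithine aminotransferase, read 2952, 2788 and 2515 with vehicle and 2369, 2244 and 3276 with the ligand, again with ligand array 3 on top, and its difference was -0.083 ± 0.21 (SE). GLUD1, glutamate dehydrogenase, had a difference of -0.36 ± 0.21 (SE), and -0.39 on its second probe set. PRODH2, which oxidises hydroxyproline, had 0.48 ± 0.35 (SE), where ligand array 1 alone read 22932 and without it the difference was 0.14.

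The contrast of the lobule zones was drawn among the members only. Of 9 tested periportal members (NAGS, HAL, ASL, CPS1, ARG1, ASS1, AGXT, OTC and FTCD) 6 had lower and 3 higher means with the ligand, and of 3 pericentral members (GLUL, OAT and SLC1A2) 1 was higher and 2 lower. The widest differences in both directions, at NAGS and FTCD, fell in the same zone. As an index, the mean log2 signal of the periportal members minus that of the pericentral members was -0.22, 0.18 and -0.14 with vehicle and -0.20, 0.27 and -0.61 with the ligand. The groups overlapped, array 2 was the highest in each, and ligand array 3 was the lowest. The means were -0.059 ± 0.21 and -0.18 ± 0.44 (SD, n = 3 per group), a difference of -0.12 that is smaller than either SD. With single arrays left out it ran from -0.35 (ligand array 2 out) to 0.095 (ligand array 3 out), and it was 0.00017 without vehicle array 2. No p is given for it, since it is a score over chosen genes.

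**Figure D3:**
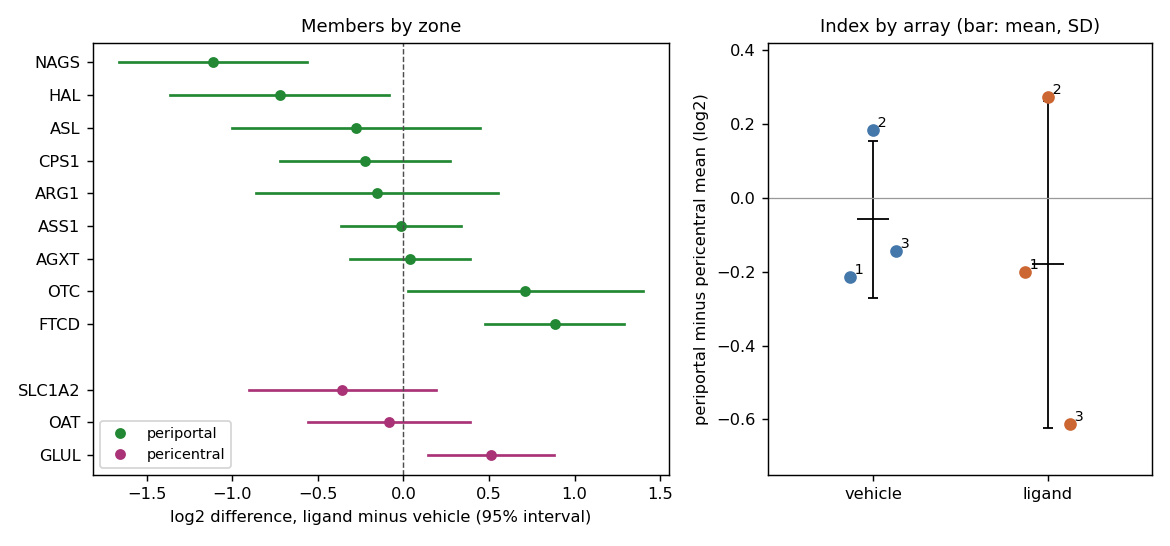
Left, log2 difference of signal + 16, ligand minus vehicle, with 95% intervals for 9 periportal and 3 pericentral members. Right, the index of periportal minus pericentral mean log2 signal on each numbered array with the mean and SD of each group of 3, where ligand array 3 is lowest at -0.61 and the groups overlap.

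Zone markers outside the list were counted too. Of 12 tested, 2 periportal and 10 pericentral, none had an unadjusted p under 0.05 in limma, beside 6.12% of all genes. None had groups that did not overlap, beside 11.4% of all genes. CYP2E1, the ethanol-oxidising cytochrome of pericentral cells, had a log2 difference of -0.16 ± 0.16 (SE). TBX3, a transcription factor downstream of Wnt, had -0.18 ± 0.20 and LGR5, a receptor of the Wnt pathway, -0.19 ± 0.32 (SE). RNF43, which limits Wnt receptors, had 0.49 ± 0.48, or 0.088 without vehicle array 1. SLCO1B3, an uptake transporter, had 0.26 ± 0.32, or -0.18 without vehicle array 3, and CYP3A4, a drug-oxidising cytochrome, 0.13 ± 0.17 (SE).

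In methionine breakdown and transsulfuration, 1 of 5 tested members (20%, beside 6.12% of all genes) had an unadjusted p under 0.05 in limma. This was CTH, cystathionine gamma-lyase, which read 11089, 3721 and 6105 with vehicle and 2528, 4280 and 2181 with the ligand. Vehicle array 1 was far above the rest and ligand array 2 above vehicle array 2, and the difference of -1.14 ± 0.38 (SE) was -0.73 without vehicle array 1. Its second probe set, at 3774, 3133 and 3859 with vehicle and 1636, 2495 and 2405 with the ligand, had groups that did not overlap and a difference of -0.73 ± 0.22.

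CBS, which makes the cystathionine that CTH splits, had a difference of 0.12 ± 0.26 (SE), and its 3 tested probe sets were all higher, by 0.12 to 0.35, although the brightest was -0.12 without vehicle array 2. MAT1A, which makes S-adenosylmethionine, had -0.089 ± 0.20, or 0.072 without ligand array 3, and BHMT, which remakes methionine with betaine, -0.29 ± 0.26 (SE), or -0.018 without vehicle array 2. GNMT, which spends S-adenosylmethionine on glycine, read 10449, 10108 and 9913 with vehicle and 14632, 14433 and 9483 with the ligand. Ligand arrays 1 and 2 were thus far above, and ligand array 3 just below, the tight vehicle arrays.

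The subunits of the branched-chain complex had means on both sides of 0. DBT, its transacylase core, read 8799, 10644 and 8745 with vehicle and 13086, 12525 and 13692 with the ligand, so the groups did not overlap, and the difference was 0.48 ± 0.17 (SE). That rests on 1 probe set with the suffix for possible matches to other transcripts: the other 4 tested gave -0.27 to 0.17, and the mean over all 5 was 0.0035. BCKDHA and BCKDHB are the subunits of the decarboxylase. BCKDHA read 1470, 3567 and 3814 with vehicle and 1822, 1959 and 856 with the ligand, a difference of -0.90 ± 0.41 (SE), or -0.52 without ligand array 3. BCKDHB had 0.19 ± 0.27 (SE), or 0.0066 with vehicle array 3 left out and 0.45 with vehicle array 2 left out.

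Further along, PCCA, a subunit of propionyl-CoA carboxylase, read 7302, 10512 and 3996 with vehicle and 15907, 14254 and 7896 with the ligand. Its array 3 was the lowest of each group, as for OTC, and the difference was 0.85 ± 0.36 (SE), or 0.47 without vehicle array 3. A far dimmer PCCA probe set gave -0.48 ± 0.54. PCCB, its partner, had 0.16 ± 0.26 (SE), or -0.049 without ligand array 2. In leucine breakdown IVD, isovaleryl-CoA dehydrogenase, had -0.11 ± 0.19, and MCCC1 and MCCC2, the subunits of methylcrotonyl-CoA carboxylase, had 0.33 ± 0.28 and -0.23 ± 0.40 (SE). The value of MCCC1 was 0.046 without vehicle array 3, and that of MCCC2 was 0.15 without vehicle array 2. AASS, which opens lysine breakdown, read 1080, 3707 and 1555 on the ligand arrays, a range that covered its 3 vehicle arrays, and its difference of -0.043 ± 0.38 (SE) was 0.34 without ligand array 1.

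In tyrosine breakdown none of 5 tested members had an unadjusted p under 0.05 in limma, beside 6.12% of all genes. None had separated groups, beside 11.4% of all genes. TAT, which takes the amino group off tyrosine, had -0.18 ± 0.19 (SE) at the brightest of its 3 probe sets, and 0.045 as their mean. HPD and HGD, the dioxygenases that follow, had 0.0093 ± 0.21 and 0.37 ± 0.25 (SE). FAH, the last enzyme, had -0.18 ± 0.29, with 0.064 without ligand array 3 and -0.52 without ligand array 1, and QDPR, which regenerates the cofactor of phenylalanine hydroxylation, -0.18 ± 0.18 (SE). HGD was 0.15 without ligand array 1, which read 7206 against 3714 to 5537 on the other 5 arrays.

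Over all members, 22 had more than 1 tested probe set, and for 13 of these all stood on 1 side of 0, while for 9 they stood on both. The names of members with a sign shared by all tested probe sets include FTCD, HAL, CTH, CPS1, SLC1A2, GLUD1 and CBS, and those with both signs include GLUL, DBT, PCCA and AGXT.

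**Figure D4:**
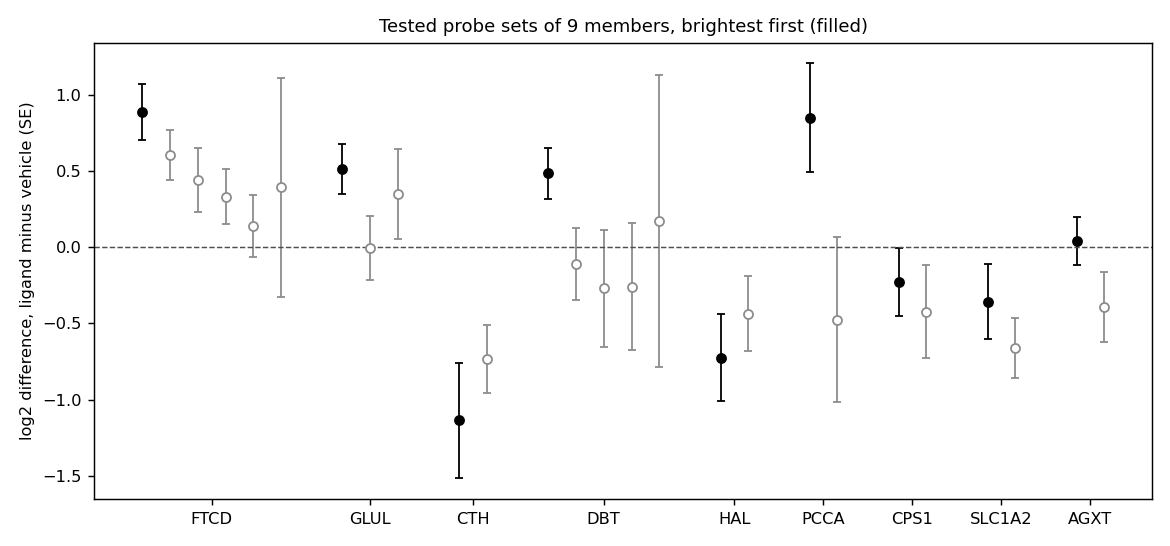
Log2 difference of signal + 16, ligand minus vehicle, with its SE for each tested probe set of 9 members chosen after their values were seen, ordered within a gene from the brightest (filled) to the dimmest. All 6 FTCD points lie above 0 and both CTH points below, while the brightest DBT point, at 0.48, has 4 dimmer neighbours between -0.27 and 0.17.

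Enzymes and transporters of the same pathways outside the list, also chosen with earlier results of these data known, were counted in the same fit. Of 55 tested, 0 passed, and 7 (12.7%, beside 6.12% of all genes) had an unadjusted p under 0.05, 5 higher and 2 lower, while 21 were higher and 34 lower in all. GLDC, the glycine decarboxylase, read 649, 784 and 309 with vehicle and 1795, 1163 and 1043 with the ligand, with no overlap and a difference of 1.24 ± 0.36 (SE), or 0.85 without vehicle array 3. HIBADH, a dehydrogenase of valine breakdown, read 951, 981 and 1084 with vehicle and 1419, 1697 and 1700 with the ligand, also with no overlap, and its difference was 0.66 ± 0.21 (SE), or 0.40 as the mean of its probe sets. AGXT2, a mitochondrial aminotransferase of glyoxylate, had 1.04 ± 0.36 (SE), with overlapping groups.

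On the lower side stood 2 amino acid transporters and a modifier of the urea cycle. SLC7A2, which carries arginine and lysine, read 14545, 22479 and 18236 with vehicle and 6836, 15773 and 10267 with the ligand, a difference of -0.81 ± 0.29 (SE), or -0.51 without ligand array 1. SLC38A4, a sodium-coupled carrier of neutral amino acids, had -0.69 ± 0.31 (SE), or -0.44 without ligand array 1 and -0.37 as the mean of its probe sets. SIRT5, a mitochondrial deacylase that acts on CPS1, read 1840, 2306 and 1649 with vehicle and 1328, 1301 and 1482 with the ligand. Its groups did not overlap, and the difference was -0.48 ± 0.22 (SE), or -0.19 as the mean of its probe sets.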

How the data were processed

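The authors deposited 1 intensity per probe set and array. The submitters' processing notes name MAS5 as its source; version, scaling target and filters are not given in the sources used here. Per the labels, total RNA from each liver was purified with an RNeasy kit and marked with biotin. Probe sets were named from the platform annotation: 41097 had 1 symbol, 1801 several and 11777 none. All 39 members with a probe set also occur as symbols in the macaque RefSeq annotation. No sequences were used here.

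Values became log2(signal + 16), a scale that understates changes at low signal. After 62 control probe sets were dropped, 27304 probe sets with a mean signal at or above the median, 129, were tested with lmFit and eBayes (intensity trend, prior 6.23 degrees of freedom) in limma 3.58.1 under R 4.3.3, two-sided, with Benjamini-Hochberg adjustment and a threshold of 0.05. Intervals are at 95%, and the small number of arrays limits the precision. Full values are given for the urea cycle, the zone members and the 8 members with the smallest p. For the 3 higher and 3 lower genes with the smallest p of each other kind of list, differences are given, with arrays for some. Arrays of further members are shown where 1 array decided a value, after the values were seen. Members and lists were chosen with earlier results of these data known. The test was checked on simulated data for bias and for false calls. The share of planted changes that it called was recorded too. That share is not reported here, so the text does not show how large a change could have been missed. Replicate numbers were not used to pair the arrays in the main fit. Figures used Python 3.11.15 and matplotlib 3.10.9.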

Additional observations from a re-analysis of the deposited data

How the results depend on the processing

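No member and none of the other pathway genes passed at an adjusted p under 0.05 or 0.10, or under any alternative run with limma: median centring, quantile normalization, a pseudocount of 1 or 64, a filter at the 75th percentile or none, no trend, robust estimation, array weights, 1 probe set a gene, probe sets averaged per gene, the replicate number as a block, and each array left out. Over all probe sets 0 passed, or 0 to 1 with an array left out. With the replicate number as a block 10 members had an unadjusted p under 0.05, as without it, beside 7.07% of all genes. Same-numbered arrays correlated at 0.040, -0.031 and 0.070 in their deviations over all tested probe sets. Over the members alone, the median deviation was 0.017, 0.16 and -0.12 with vehicle and -0.066, 0.12 and -0.16 with the ligand. The block moved the SE of GOT1 from 0.29 to 0.17 and of OTC from 0.31 to 0.18, but that of NAGS from 0.25 to 0.27. Whether the numbers pair the members' values was not tested. The count of 10, added after seeing the data, was 4 without an intensity trend, beside 5.29% of all genes, and 6 to 11 with an array left out, beside 5.6% to 6.42%. The members whose groups did not overlap numbered 6 (15.8%, beside 11.4% of all genes), or 8 (beside 11.3%) when probe sets were averaged per gene. NAGS and FTCD had an unadjusted p under 0.05 in all 18 alternatives. Of 1007 recomputed gene values 32 changed sign. With probe sets averaged per gene TAT gave 0.045, AGXT -0.18 and IVD 0.025. By median centring HPD gave -0.034 and AGXT -0.0045, and by array weights AASS gave 0.071. With each array left out, values ran from -0.11 to 0.072 for ASS1, -0.63 to 0.026 for ASL, -0.38 to 0.070 for ARG1, -0.25 to 0.021 for OAT, -0.17 to 0.15 for HPD, -0.52 to 0.064 for FAH, -0.024 to 0.11 for AGXT, -0.54 to 0.34 for AASS, -0.72 to 0.15 for MCCC2, -0.049 to 0.41 for PCCB, -0.21 to 0.072 for MAT1A, -0.12 to 0.26 for CBS, -0.20 to 0.57 for GCGR, -0.33 to 0.044 for KLF15, -0.18 to 0.56 for SLCO1B3, -0.00055 to 0.24 for CYP3A4 and -0.36 to 0.12 for LGR5. The cause of these changes was not tested. Median centring moved the median of all genes by -0.043. Probe sets below the filter, such as that of UROC1, were tested only in the run without a filter.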

Other observations

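Regulators of amino acid breakdown were looked at as values. Of 9 tested, 3 were higher and 6 lower with the ligand, and 0 passed in limma. An unadjusted p under 0.05 was found for 1 (11.1%), beside 6.12% of all genes. That one was CEBPA, a transcription factor that drives urea cycle and other hepatocyte genes. It read 22342, 12581 and 16381 with vehicle and 12618, 10917 and 10107 with the ligand. Ligand array 1 lay just above vehicle array 2, and the log2 difference was -0.57 ± 0.22 (SE), or -0.36 without vehicle array 1. NR3C1, the glucocorticoid receptor, had -0.28 ± 0.19 and KLF15, a factor of fasting amino acid use, -0.15 ± 0.23 (SE). GCGR, the glucagon receptor, had 0.21 ± 0.38, CREB3L3, a membrane-bound factor active in fasting, 0.26 ± 0.24, and CTNNB1, the Wnt effector of pericentral genes, 0.089 ± 0.15 (SE).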
